A study of Mus musculus with 20 samples.

Results

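The ErbB receptor family has 4 genes in the mouse, Egfr, Erbb2, Erbb3 and Erbb4, and all 4 were among the 56884 genes listed for male liver and the 18149 genes listed for female liver. The genes were chosen by their symbols and joined between the 2 lists by Ensembl identifier. They were picked with the results of the genotype comparison in the deposited tables known, and those results are not used here, so nothing below compares Midn-T with WT liver. The 12 RNA-seq libraries came from livers of mice aged 11 to 14 weeks, with 3 libraries in each of the groups male WT, male Midn-T, female WT and female Midn-T. WT samples, for which no source used here says whether they carried Cre, had the genotype label Midn XTR, a gene-trap allele of the gene for midnolin whose cassette leaves the gene expressed. Midn-T samples carried the label Midn TR, in which Albumin-Cre, active in hepatocytes, inverts the cassette within intron 2 and cuts the transcript short, while liver cells without Albumin-Cre activity keep the intact gene. The values described here are 1 mean per gene over the 6 libraries of a sex, both genotypes together, and no value of a single liver was used.

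ErbB proteins are receptor tyrosine kinases of the cell surface. Binding of a ligand lets a receptor pair with itself or with another family member, and the tails of the pair are then phosphorylated and recruit adaptor proteins to the RAS and MAP kinase cascade and to phosphoinositide 3-kinase. EGFR binds EGF, TGF-alpha and related ligands and is known for its part in liver regeneration. ERBB2 has no known ligand of its own and acts as a partner, ERBB3 binds neuregulins, has an impaired kinase and signals mainly through phosphoinositide 3-kinase, and ERBB4 binds neuregulins with an active kinase.

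The coding sequence of the catalytic loop is shown for the 4 genes as a part that can be compared base by base. This loop is the short stretch of the kinase domain where phosphate transfer takes place. The sequences were read from the transcript with the longest coding sequence of each gene in GENCODE M39 and lie in exon 21 in all 4 genes (GRCm39). They are on chr11:16854323-16854376, plus strand, for Egfr, chr11:98325058-98325111, plus strand, for Erbb2, chr10:128408387-128408440, minus strand, for Erbb3, and chr1:68119883-68119936, minus strand, for Erbb4. Each is written 5′ to 3′ along the transcript, and the 24 bases of the loop are in capitals.
Egfr: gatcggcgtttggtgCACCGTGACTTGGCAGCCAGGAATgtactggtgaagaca
Erbb2: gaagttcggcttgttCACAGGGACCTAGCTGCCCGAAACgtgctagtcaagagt
Erbb3: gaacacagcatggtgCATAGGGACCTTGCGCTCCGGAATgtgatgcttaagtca
Erbb4: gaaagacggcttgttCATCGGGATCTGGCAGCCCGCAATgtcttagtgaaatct

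Between 15 and 18 of the 24 loop bases were shared by any 2 of the genes, with the fewest between Egfr and Erbb3 and the most between Egfr and Erbb4. Over the whole translated coding sequences, 55.2% of the aligned residues were identical between Egfr and Erbb4, 53.8% between Egfr and Erbb2, 52.9% between Erbb3 and Erbb4 and 50.2% between Erbb2 and Erbb4. Erbb3 was the least like Egfr, at 45.0%, and the least like Erbb2, at 44.6%. The coding sequence of Erbb3 held 7 tyrosine codons followed by a methionine codon 3 places on, the pattern that the regulatory subunit of phosphoinositide 3-kinase is known to bind when the tyrosine is phosphorylated. The same count was 1 for Egfr, 2 for Erbb2 and 2 for Erbb4, and it covered the whole coding sequence, not only the tail of the receptor.

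Egfr (ENSMUSG00000020122, chromosome 11, 16702198 to 16868158) had a mean normalized count of 50647 in male liver and 28540.4 in female liver. This placed it 60th in males and 109th in females among the 13621 protein-coding genes listed for both sexes. To compare genes with one another, the mean normalized count was divided by the length of all annotated exons of the gene and scaled so that the protein-coding genes listed for both sexes summed to 1000000, which is called the length-scaled level here and given in parts per 1000000 (ppm). The length-scaled level of Egfr was 659 ppm in males and 375 ppm in females, above 98.7% and 97.7% of these 13621 genes. This set leaves out genes that were not listed for females. No other member was as high in either sex.

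Erbb3 (ENSMUSG00000018166, chromosome 10, 128403392 to 128425811) had a mean normalized count of 5637 in male and 9262 in female liver. Its length-scaled level was 134 ppm in males and 223 ppm in females, above 93.9% and 96.2% of the protein-coding genes listed for both sexes. Egfr was 4.90-fold above Erbb3 on this scale in males and 1.68-fold above it in females, and 9.94-fold and 3.41-fold with the longest coding sequence as the length.

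Erbb4 (ENSMUSG00000062209, chromosome 1, 68071345 to 69147619) is the longest of the 4 genes and spans 1076275 bp. It had a mean normalized count of 674 in males and 522 in females, and a length-scaled level of 7.94 and 6.22 ppm. Among the protein-coding genes listed for both sexes, these levels were above 43.3% in males and 36.8% in females, below the median of that set. The set leaves out genes not listed for females, so the place of Erbb4 among all protein-coding genes was not examined. Egfr was 82.9-fold above Erbb4 in males and 60.3-fold in females.

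Erbb2 (ENSMUSG00000062312, chromosome 11, 98303203 to 98328542) was the lowest member in both sexes. Its mean normalized count was 69.5 in males and 75.8 in females, with a length-scaled level of 1.93 and 2.12 ppm. About 20% of the protein-coding genes listed for both sexes were lower, 20.6% in males and 20.2% in females. The gap to Erbb4, the next member up, was 4.12-fold in males and 2.93-fold in females. With the longest coding sequence as the length Erbb2 was at 0.855 and 0.936 ppm and the gap was 9.31-fold and 6.62-fold.

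The order from high to low was therefore Egfr, Erbb3, Erbb4 and Erbb2 in both sexes. The 4 genes together had a length-scaled level of 803 ppm in males and 607 ppm in females. Egfr made up 82.0% of this sum in males and 61.9% in females, Erbb3 16.7% and 36.8%, Erbb4 0.989% and 1.03%, and Erbb2 0.240% and 0.350%. With the longest coding sequence as the length the share of Egfr was 89.7% in males and 76.2% in females, and that of Erbb3 was 9.03% and 22.3%. The spread between livers could not be taken from these means, so no pair of neighbors in the order was tested. For males, the number of reads behind each mean could be estimated from the values of the lowest genes, and the 95% Poisson interval for counting error alone was 63.1 to 76.4 around the mean of 69.5 for Erbb2 and 654 to 695 around that of 674 for Erbb4. For Erbb3 it was 5578 to 5696, so that counting error was small beside the gaps between members, but these intervals leave out the differences between mice.

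**Figure D1:**
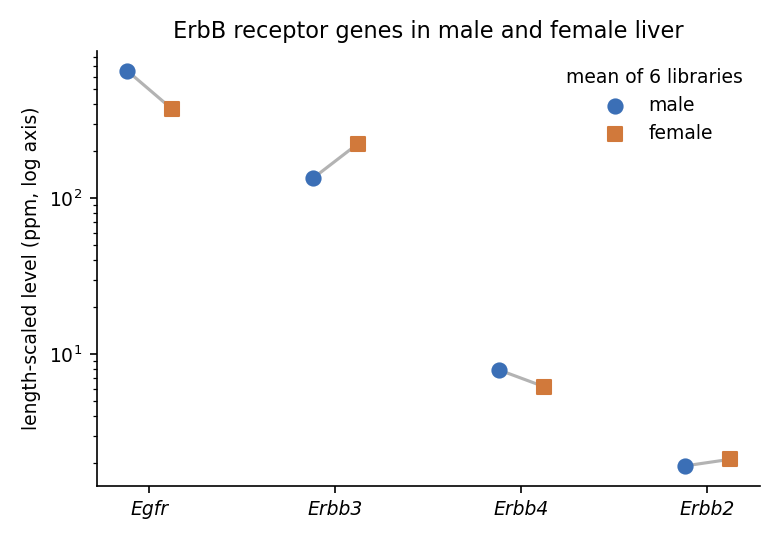
Length-scaled level (ppm, log axis) of the 4 ErbB receptor genes, with the male mean of 6 libraries as a circle and the female mean of 6 libraries as a square joined by a line. Egfr lies at 659 in males and 375 in females, Erbb3 at 134 and 223, and Erbb4 and Erbb2 under 8 in both sexes. The means carry no error bars because no value of a single library was used.

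The sexes were then set side by side. The male and female tables were normalized separately, so both were first scaled to the same sum over the protein-coding genes they share, and with 1 pooled mean a sex there was no test. Egfr was 1.79-fold higher in males (log2 male over female 0.84), and Erbb3 was 1.63-fold higher in females (log2 -0.71). Erbb4 was 1.30-fold higher in males (log2 0.38) and Erbb2 1.08-fold higher in females (log2 -0.11). Members of 1 family thus lay on opposite sides of equality, with Egfr and Erbb3 the farthest from it.

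These differences were read against all 12962 protein-coding genes with a mean normalized count of at least 10 in both sexes. A fold of 1.5 in favor of males was passed by 3.61% of these genes and by 1 of the 4 members, Egfr. The same fold in favor of females was passed by 6.15% of the genes and by 1 member, Erbb3. Without the minimum, which takes out genes near 0 in 1 sex, the shares were 3.76% toward males and 7.95% toward females. The log2 ratio of Egfr was above that of 98.1% of the genes, and the ratio of Erbb3 was above that of only 3.97%. In either direction, 4.45% of the genes lay at least as far from equality as Egfr, 6.49% as far as Erbb3, 21.5% as far as Erbb4 and 65.3% as far as Erbb2. The ratios of Erbb4 and Erbb2 were thus within the range of many other genes. A mean over both genotypes also holds any difference between Midn-T and WT livers, and the part of the genotypes in these ratios was not tested.

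**Figure D2:**
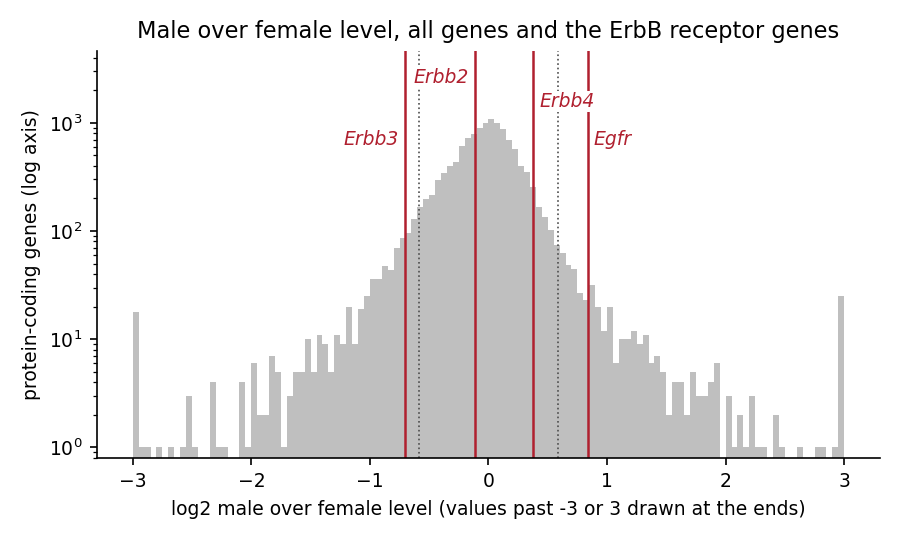
Number of protein-coding genes (log axis) by log2 male over female level, for the 12962 genes past a mean normalized count of 10 in both sexes, with the 4 ErbB receptor genes as solid lines and a fold of 1.5 either way as dotted lines. Egfr lies beyond the dotted line on the male side, Erbb3 beyond that on the female side, and Erbb2 and Erbb4 between the 2 lines.

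The quotient of 2 genes within a table does not depend on how the tables were scaled. The mean normalized count of Egfr was 8.99 times that of Erbb3 in males and 3.08 times that of Erbb3 in females, a 2.92-fold difference between the sexes in the balance of the 2 most abundant members. Gene length also cancels in this comparison of quotients.

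The sex labels were checked with genes whose higher expression in male or female mouse liver is well known. All 10 of the genes listed as male-biased were higher in males, 9 of them by more than Egfr, from 2.60-fold for Slco1a1 to 197-fold for Cyp4a12a, and Egfr is itself the tenth gene of that list. Of the 10 genes listed as female-biased, 9 were listed for both sexes, and all 9 were higher in females. Only 3 of them, Cyp2b9, Cyp2a4 and Cux2, had a mean normalized count of at least 10 in both sexes. The tenth gene, A1bg, was listed for males only, with a mean normalized count of 0.773, and so had no ratio. The tissue label was checked with 8 hepatocyte markers, all listed for both sexes, whose length-scaled levels ran from 541 to 50847 ppm in males and from 599.6 to 69443 ppm in females. Tat, a hepatocyte marker that encodes tyrosine aminotransferase, was 1.60-fold higher in males, and the other 7 markers were within a fold of 1.5. The log2 ratios of the 8 markers ran from -0.42 for Alb, the albumin gene, to 0.68 for Tat. The part of hepatocytes in the levels of the ErbB receptor genes was not tested.

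Whole liver holds several cell types, and fewer cells of a type cannot be told apart from less RNA per cell in such samples. The 8 markers of bile duct cells, an epithelium known to express ErbB receptors, summed to 77.3 ppm in males and 87.9 ppm in females. Of these 8, Krt19, Krt7 and Cftr (37.5%) were more than 1.5-fold higher in females, beside 6.15% of all protein-coding genes. They were low, with mean normalized counts of 19.7, 22.1 and 12.3 in males, and Sox9 of the same list was higher in males (log2 0.24). The level of Krt19, a defining marker of these cells, was 1.60 and 3.12 ppm, of the same order as Erbb2 and far below Erbb3. The sums for the other cell types were 167 and 221 ppm for stellate cells, 306 and 358 for sinusoidal endothelial cells, and 215 and 224 for Kupffer cells and other leukocytes. Of the 24 genes of these 3 lists, only Marco, a Kupffer cell gene, was past a fold of 1.5, toward males, beside 3.61% of all protein-coding genes. All 8 stellate cell markers were higher in females, with log2 ratios from -0.49 to -0.29. The median log2 ratio was -0.22 for sinusoidal endothelial cells and -0.06 for Kupffer cells and other leukocytes. All 32 markers of the 4 lists were above 0 in both sexes. The part of any of these cell types in the levels of the ErbB receptor genes was not tested.

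Among the 58 genes of receptor tyrosine kinases, of which 58 were listed for males and 43 for females, Egfr and Erbb3 ranked 1st and 2nd by length-scaled level in both sexes. They were followed by Insr, the insulin receptor, at 126 ppm in males and 131 in females, and Met, the receptor of hepatocyte growth factor, at 113 and 105 ppm. The 5th place was held by Epha1, an ephrin receptor gene, in males (59.6 ppm) and by Kdr, a receptor of vascular endothelial growth factor, in females (63.2 ppm). Erbb3 was 1.06-fold above Insr in males and 1.704-fold in females, and this order depended on how gene length was defined. With the longest coding sequence as the length Erbb3 was at 0.4995 times the level of Insr in males and 0.799 times in females, and with the longest transcript at 0.726 times in males and 1.16 times in females. Erbb4 ranked 21st in males and 25th in females, and Erbb2 30th and 31st. The 4 ErbB genes held 51.0% of the summed level of the receptor tyrosine kinase genes in males and 43.1% in females.

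**Figure D3:**
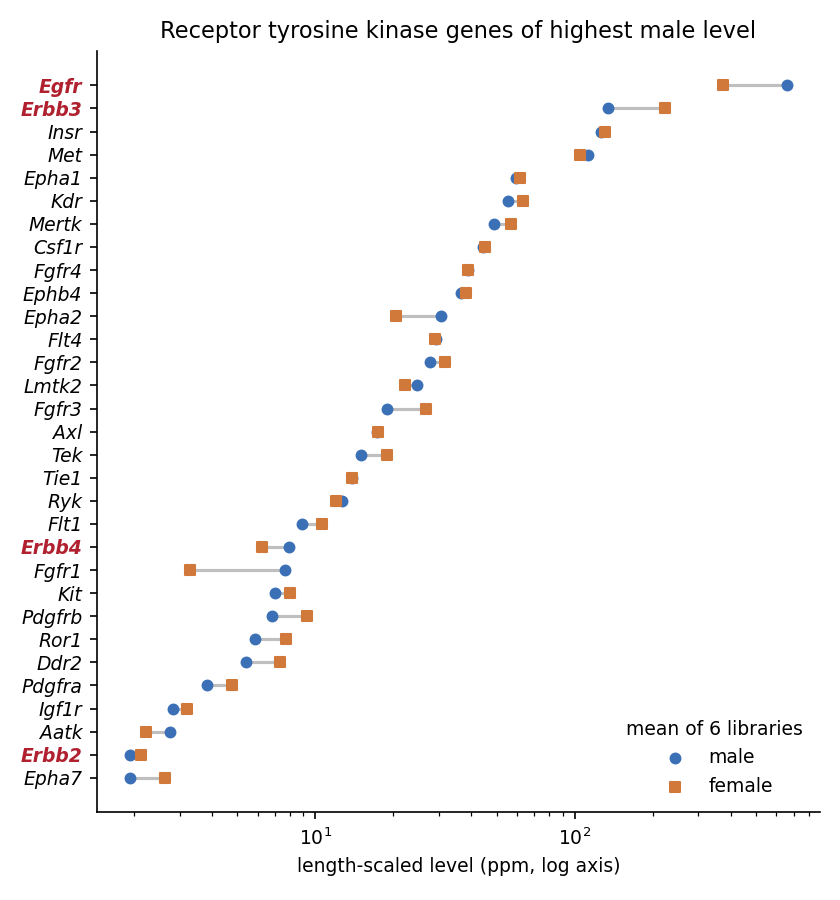
Length-scaled level (ppm, log axis) of the 31 receptor tyrosine kinase genes with the highest male level, with male means of 6 libraries as circles and female means of 6 libraries as squares. ErbB names are in bold red. Egfr and Erbb3 lie at the top with the widest separation of the sexes among the 10 highest genes, whereas Insr and Met nearly coincide in the 2 sexes.

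Of the 41 receptor tyrosine kinase genes with a mean normalized count of at least 10 in both sexes, 3 were past a fold of 1.5 toward males and 3 toward females, or 7.32% each way, beside 3.61% and 6.15% of all protein-coding genes. The first 3 were Egfr, Fgfr1, a fibroblast growth factor receptor gene (2.38-fold), and Epha2, an ephrin receptor gene (1.52-fold), whose log2 ratio of 0.60 dropped within the fold, to 0.56, when the 10 highest genes were left out of the scaling. The other 3 were Erbb3, Ntrk2, a neurotrophin receptor gene (3.49-fold), and Ephb3, an ephrin receptor gene (1.69-fold). Ntrk2 and Ephb3 were low, with length-scaled levels of at most 1.12 ppm. Met and Insr had log2 ratios of 0.12 and -0.03.

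Of the 7 genes for ligands of EGFR, Tgfa was by far the highest, at 20.7 ppm in males and 16.8 in females. Btc, which encodes betacellulin, was at 1.91 and 2.54 ppm, Hbegf, which encodes heparin-binding EGF-like growth factor, at 0.834 and 1.43, Egf itself at 0.675 and 0.692, and Ereg, which encodes epiregulin, at 0.488 and 0.784. Areg and Epgn, which encode amphiregulin and epigen, were listed for males only, with mean normalized counts of 1.82 and 0.148. The length-scaled level of Egfr was 31.8 times that of Tgfa in males and 22.3 times in females, but 7.73 and 5.42 times with the longest coding sequence as the length. Hbegf and Ereg were 1.68-fold and 1.58-fold higher in females, the direction opposite to that of Egfr, whereas Tgfa was 1.25-fold higher in males. Both Hbegf and Ereg were low, with mean normalized counts of 28.4 and 14.4 in males and 48.0 and 23.0 in females.

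The 4 neuregulin genes encode ligands of ERBB3, of ERBB4 or of both, and which receptor each one binds was not examined here. Nrg4 was the highest, at 15.1 ppm in males and 11.8 in females, and was 1.30-fold higher in males. Nrg1 was at 0.341 and 0.570 ppm and was 1.64-fold higher in females. Nrg2 had a mean normalized count of 1.90 in males, and Nrg3 was listed at 0 there. Neither was listed for females, so no female level is given.

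Genes that act on the ligands and receptors or below them mostly lay within a fold of 1.5 between the sexes. Of the 78 ligand and pathway genes, 71 had a mean normalized count of at least 10 in both sexes, and 63 of these lay within a fold of 1.5. The number past this fold was 4 in each direction, 5.63% of the 71, beside 3.61% toward males and 6.15% toward females among all protein-coding genes. The median log2 ratio of the 71 genes was 0.08, beside -0.02 for all 12962 genes.

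Among the 6 genes for release of ligands from the cell surface, the metalloprotease genes Adam9, Adam10 and Adam17 were the highest, with 99.5, 43.5 and 15.8 ppm in males and 95.4, 42.5 and 15.6 in females. None of the 6 passed a fold of 1.5. The same held for all 15 adaptor and transducer genes. By the mean of both sexes their highest members were Crk, an adaptor gene, at 82.1 and 76.5 ppm, Pik3r1, which encodes the regulatory subunit of phosphoinositide 3-kinase, at 82.0 and 73.5, and Ptpn11, which encodes the phosphatase SHP2, at 53.6 and 44.5, and in females Shc1, an adaptor gene, was above Ptpn11, at 47.8 ppm.

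The 12 genes of the RAS and MAP kinase cascade, AKT genes included, had log2 ratios between -0.04 and 0.39, a narrower range than that of the 4 receptors, which ran from -0.71 to 0.84. Map2k1, which encodes the kinase MEK1 of this cascade, was at 52.9 ppm in males and 43.6 in females. None of the 12 genes passed a fold of 1.5.

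Inhibitors of the receptors included the most abundant RNA of all the pathway genes. Errfi1, which encodes MIG6, a protein that binds the kinase domain of ErbB receptors and blocks it, was at 1057 ppm in males and 852 in females, 1.60 and 2.27 times the level of Egfr. Errfi1 stayed above Egfr with both other definitions of length and was 1.26-fold higher in males than in females. The other 19 genes of the list were far lower. The next were Dusp6, which encodes a MAP kinase phosphatase, at 90.2 and 118 ppm, and Ptprj, which encodes a receptor phosphatase, at 75.5 and 89.3. Of the 20 genes, 1 passed a fold of 1.5: Spry4, a feedback inhibitor gene of receptor tyrosine kinase signaling, was 1.89-fold higher in females. Lrig1, whose product promotes loss of ErbB receptors from the cell surface, was at 30.1 and 26.5 ppm.

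Immediate early genes, which growth factor signals and stress are known to induce, were set beside the receptors as a list of 14. Of these, 11 had a mean normalized count of at least 10 in both sexes. All 4 that passed a fold of 1.5 were higher in males, Fosb 3.71-fold, Atf3 3.40-fold, Jun 1.75-fold and Fos 1.63-fold. This was 36.4% of the 11 genes, beside 3.61% toward males among all protein-coding genes. The other 7 were within this fold, and the lowest log2 ratio was -0.31, for Junb. How many livers carried these differences could not be read from pooled means, and Fosb was low, with a mean normalized count of 31.9 in females. By the mean of the length-scaled levels of both sexes the highest members were Jund, Egr1 and Ier2, with log2 ratios of 0.27, -0.12 and 0.13, whereas in males alone Jun, at 112 ppm, was above Egr1 and Ier2. Whether the levels of these genes followed those of Egfr from liver to liver could not be examined with 1 mean a sex.

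**Figure D4:**
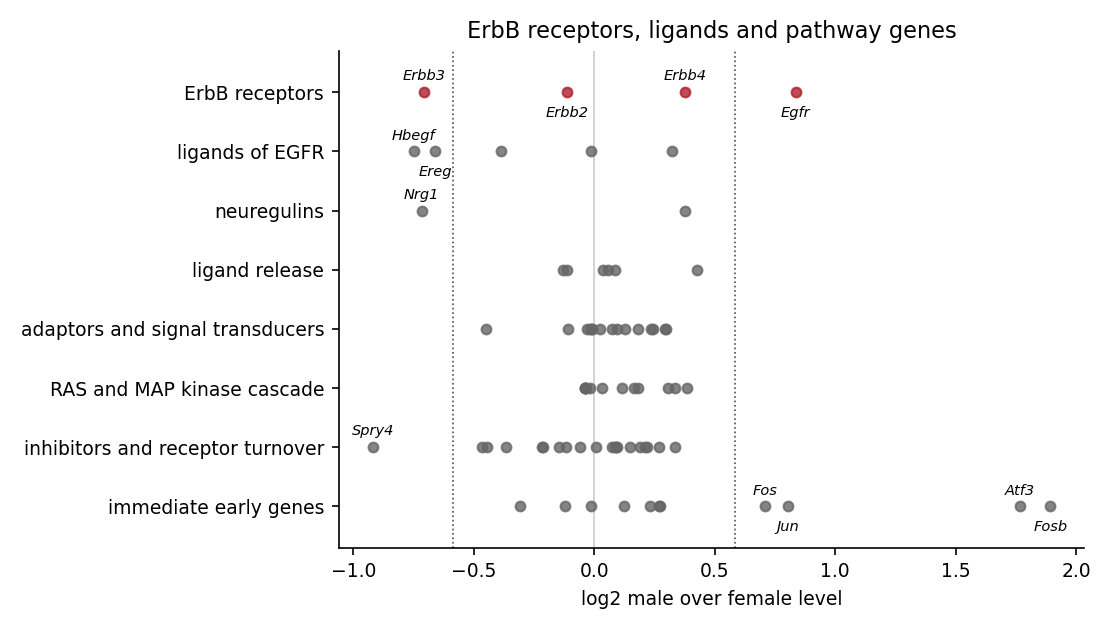
Log2 male over female level of the ErbB receptor genes (red) and of each ligand and pathway gene with a mean normalized count of at least 10 in both sexes, by list, with dotted lines at a fold of 1.5. The receptors spread from -0.71 to 0.84, whereas the genes for ligand release, adaptors and the RAS and MAP kinase cascade lie between the dotted lines. Genes past a fold of 1.5 and all 4 receptors are named.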

How the data were processed

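RNA-seq of liver RNA, depleted of ribosomal RNA, covered males and females, with 3 WT and 3 Midn-T samples each. STAR (2.7 in the submitters' processing notes) placed the paired reads on GRCm39, HTSeq gave counts of uniquely placed reads per Ensembl gene, with strand, and DESeq2 was run by the authors on the libraries of 1 sex at a time. The signal used from the deposited tables is a gene's mean over those 6 libraries after division by size factors. The tables also hold the authors' comparison of Midn-T with WT (fold changes, standard errors, statistics and p-values), and the 2 ATAC-seq files list peaks that the authors called different. None of these were used.

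Genes were joined by Ensembl identifier, since 62 carry different symbols in the 2 tables. GENCODE M39, also on GRCm39, held 56323 of the listed genes and gave exon lengths. In the male table, 26580 genes are listed at 0, and all 5018 genes with means above 0 and under 0.5 fell within 2e-05 of sums of whole reads of 6 libraries. The values of 1 read gave size factors of 0.598 to 1.27, or about 18100000 to 38600000 counted reads a library. The male libraries could not be matched to their steps. The female table lists no mean under 6.61, so its depth is unknown. Added over all genes, the means came to 3.03e+07 for males and 3.08e+07 for females.

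Analyses used pandas 2.3.3 and numpy 2.4.6 under Python 3.11.15, with biopython 1.88 for alignment, scipy 1.17.1 for intervals and matplotlib 3.10.9 for figures. The scaling was tested on simulated data. No test between groups was run, because no value of a single library was used. Translated coding sequences were aligned over their length with BLOSUM62, without a penalty for gaps at the ends. Identity was taken over aligned residues, with gaps left out. Named genes are the members, every ligand, the 3 highest genes of each other pathway list by the mean level of both sexes, genes of those lists past a fold of 1.5, and the 5 highest receptor tyrosine kinase genes in each sex. Lrig1, Fgfr1, Epha2, Ntrk2, Ephb3, Shc1 and genes named from the marker and sex-biased lists fall outside this rule and were chosen after their values were seen. Some genes that the rule names in the RAS and MAP kinase list are not reported here. The members and lists were chosen with earlier results of these data known. Protein sequences were not analysed here beyond the translation. The alternatives were other gene lengths, other scalings and no minimum on the mean. Levels of gene pairs and shares of summed levels under other lengths, and of other receptor tyrosine kinase genes under other scalings, were added after seeing the data.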

Additional observations from a re-analysis of the deposited data

How the results depend on the processing

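The male over female ratios of the 4 genes kept their direction and their side of a fold of 1.5 under all 4 other scalings (the median ratio of all genes, values as deposited, the sum without the 10 highest genes and the sum over all genes). The log2 ratio ran from 0.80 to 0.86 for Egfr, from -0.75 to -0.68 for Erbb3, from 0.34 to 0.40 for Erbb4 and from -0.15 to -0.09 for Erbb2. Each of these scalings moved the log2 ratios of all genes by 1 common amount, from -0.0401 to 0.0246. The ranges therefore hold nothing specific to the 4 genes. Gene length moved the levels more. The summed level of the 4 genes was 661 ppm in males and 487 ppm in females with the longest transcript as the length, and 481 ppm in females with the longest coding sequence. The order of the members was kept under these lengths and without division by length. The level of Erbb3 over that of Insr, compared after seeing the data, turned to 0.726 in males with the longest transcript and to 0.4995 in males and 0.799 in females with the longest coding sequence. Erbb3 ranked 3rd among the receptor tyrosine kinase genes in males under both other lengths and in females with the coding length, and its level was 65.0 ppm in males and 107 ppm in females with the coding length. Erbb3 over Erbb4, also compared after seeing the data, was 8.17-fold in males and 17.3-fold in females with the coding length, beside 16.9-fold and 35.9-fold. No paired analysis was possible because the deposited means pool the libraries that carry the replicate numbers, and for the same reason no replicate could be left out. A mean without its spread limits each ratio to a description.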
